A study of Homo sapiens with 3 samples.

Results

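Integrin subunits and the matrix proteins they bind were examined in AB12 mouse mesothelioma cells with and without knockdown of Nf2. The 50 genes were taken by symbol from the 13936 genes of the table. They comprised 17 integrin subunits (9 alpha and 8 beta), here called the receptors, and 33 matrix genes, here called the ligands: 15 collagens, 8 laminin chains, 2 thrombospondins, 1 fibulin, 1 fibrillin and 6 other glycoproteins or proteoglycans. The genes Thbs1, Col8a1 and Itgb3, which stand for the set, were all among them.

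The series holds 3 RNA libraries of the line AB12, a malignant mesothelioma line grown in RPMI medium with serum. The control library is labelled shSC and has no replicate. The other two are labelled shNF2, and the number in each title, 20 or 21, names the library in what follows. The labels do not say whether these numbers mark hairpins, clones or cultures, so p-values reflect nothing beyond the spread among these libraries, and that spread may be technical. The submitters entered human as the organism, but the gene identifiers are those of the mouse and the values were treated as mouse. Reads assigned to genes numbered 29532600 in shSC, against 25837151 in library 20 and 26829163 in library 21, and the 50 genes took 0.185%, 0.212% and 0.241% of them. The knockdown target Nf2 had 1539 scaled counts in shSC, against 486 in library 20 and 458 in library 21.

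Integrins are cell surface receptors made of 1 alpha and 1 beta subunit, and the pair decides which matrix protein is bound. Laminins, which are trimers of an alpha, a beta and a gamma chain, form basement membranes together with collagen IV, nidogens and the heparan sulfate proteoglycans perlecan and agrin. Fibronectin, thrombospondins and tenascin are matrix glycoproteins that cells bind and remodel, and mesothelial cells normally rest on a basement membrane. Merlin, the product of Nf2, lies beneath the cell membrane, where it links adhesion to the actin cytoskeleton and to Hippo signalling.

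Receptors and ligands each held genes that were higher and genes that were lower in shNF2, in about the shares found over all genes. A scaled count is the number of reads of a gene divided by 1 factor per library, as the authors deposited it. Over all 50 genes, 17 (34%) were above shSC in both shNF2 libraries and 20 (40%) below it in both, beside 35.7% and 35.9% of all genes of the table. For the receptors these counts were 6 above, 7 below and 4 with the libraries on either side, and for the ligands 11, 13 and 9. The median log2 fold change, on the scale of log2(scaled count + 1), was 0.07 over the 17 receptors and -0.08 over the 33 ligands, beside -0.01 over all genes. In library 20 the receptor median was 0.12 and the ligand median -0.24, and in library 21 they were -0.10 and 0.00. Without Itga7, which had 4, 7 and 5 reads, the receptor median in library 20 was -0.06 over the other 16 receptors. The medians of 0.07 and -0.08 were each smaller in size than the difference between the shNF2 libraries over the same genes. These cells were measured in bulk, so fewer cells that carry a transcript and less of it in each cell cannot be told apart.

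Of the 50 genes, 44 passed the filter of a mean of at least 10 scaled counts and were tested. Col8a1 and Sparc rose and 0 fell at an adjusted p under 0.05 (limma, Benjamini-Hochberg over 12813 genes). Of all tested genes 0.843% passed, 0.414% upward and 0.429% downward. Without adjustment, 13 of 44 genes, or 29.5%, were under 0.05, beside 9.27% of all tested genes. The 7 higher ones (4.36% of all tested genes) were Sparc, Col8a1, Thbs1, Col12a1, Lamc3, Itga1 and Col18a1, and the 6 lower ones (4.91%) Fn1, Col7a1, Itgb3, Col20a1, Lamb2 and Tnc. Only Itga1 and Itgb3 of these 13 are receptors. The 13 are not independent of the filter. Of the 44 genes, 6 were under 10 scaled counts in shSC and were tested because of their shNF2 values. Among them were Sparc, Col12a1, Lamc3 and Itga1. Of all 12813 tested genes only 230 were under 10 in shSC, so 29.5% and 9.27% are not a like comparison. edgeR called 0 of the 44 (14 under 0.05 without adjustment), where it called 0.632% of all genes, and DESeq2 called Col8a1 alone (5 under 0.05 without adjustment), where it called 0.765%. With a mean of at least 50 scaled counts, which leaves 10866 genes and fewer members, 6 members were under 0.05 in limma without adjustment. limma called 0 of the 44 after quantile normalization (7 under 0.05 unadjusted) and 0 with no trend in the variance (11 unadjusted). In both of these settings limma called 0 of all tested genes, so the lost calls are not particular to the set. Nf2 lost its limma call there as well (adjusted p = 0.496 and 0.187). No share over all genes stands beside the unadjusted counts outside the main fit, so they cannot be set against a background. With no filter on low values it called 4 (Col8a1, Sparc, Thbs1 and Fn1), beside 1.66% of all genes.

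**Figure D1:**
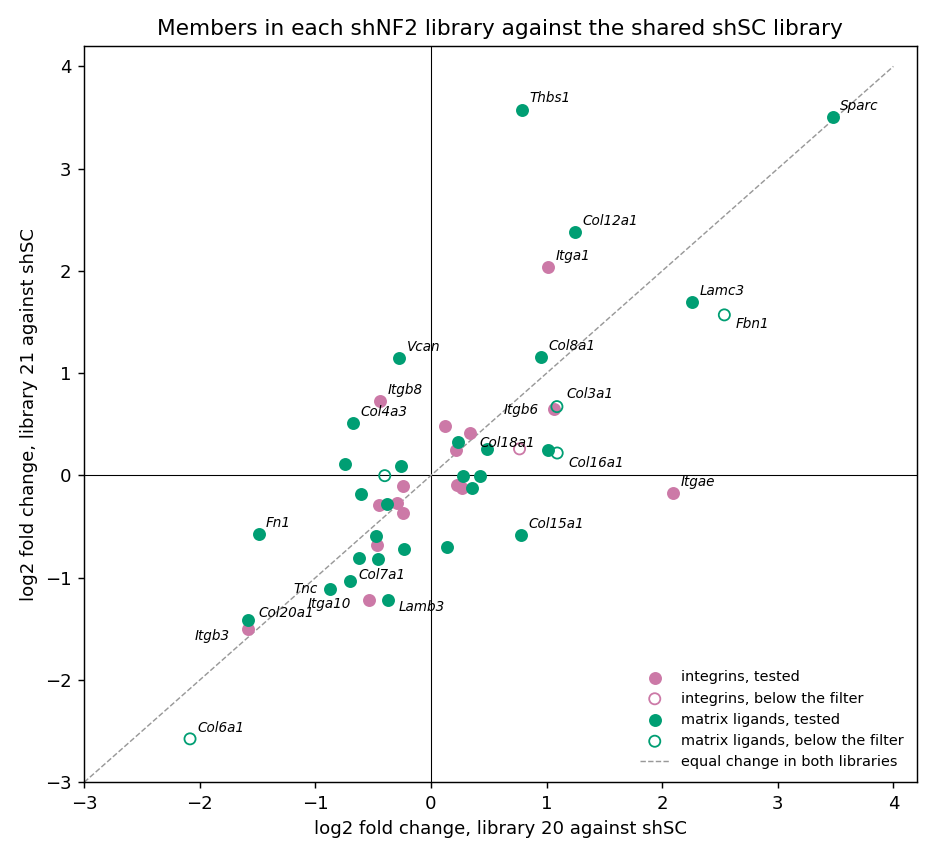
Log2 fold change of each of the 50 genes in library 20 (horizontal axis) and library 21 (vertical axis) against the shSC library that both share; pink points are integrins, green points matrix ligands, and open points genes below the filter. Sparc and Col8a1 lie near the dashed line of equal change, whereas Thbs1 lies far above it at 0.79 in library 20 and 3.58 in library 21.

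Among the receptors, Itgb1 was the most abundant subunit. It encodes the beta subunit shared by most matrix-binding integrins. Its scaled counts were 19543 in shSC, against 21285 in library 20 and 27363 in library 21. Both shNF2 libraries were above shSC, at ratios of 1.09 and 1.40, and the fold change did not pass the test (log2 fold change 0.30 ± 0.24, SE, adjusted p = 0.749). Levels of different genes were compared per kilobase, with the longest human coding transcript of the same symbol standing in for the mouse length. On that scale Itgb1 stood at 5165 scaled counts per kilobase in shSC, followed by Itgb7 at 803, Itga6 at 743, Itga3 at 690, Itgav at 281 and Itgb2 at 262.

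Besides Itgb1, which was above shSC in both libraries, the set held 4 subunits of integrins that mainly bind laminin, and none passed the test. Itga3, Itga6 and Itgb4 were below shSC in both shNF2 libraries, and Itga7 was above it in both. Itga6, whose product binds laminin with either the beta 1 or the beta 4 subunit, had 4174 scaled counts in shSC, against 3049 in library 20 and 3426 in library 21. Itga3, whose product binds laminin with the beta 1 subunit, had 3374, 2849 and 2617. Itgb4, the hemidesmosome subunit that pairs with alpha 6, had 508, 368 and 316. For these 3 genes shSC was the highest library, and their log2 fold changes were -0.37, -0.31 and -0.57, with adjusted p of 0.660, 0.715 and 0.539. Itga7 had 4, 7 and 5 reads and was below the filter.

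Subunits of integrins that bind RGD sequences, short motifs in fibronectin and related proteins, went in different directions. Itgav encodes the alpha subunit of several of these receptors. Its scaled counts were 1979 in shSC, against 2502 in library 20 and 2638 in library 21, above shSC in both (log2 fold change 0.38 ± 0.21, SE, adjusted p = 0.648). Itgb3, a beta partner of alpha V, had 45.8 scaled counts in shSC, against 14.6 in library 20 and 15.6 in library 21. The shNF2 libraries lay close together, at ratios to shSC of 0.320 (exact 95% counting interval 0.163 to 0.591) and 0.340 (0.180 to 0.610). With 47 reads in shSC and 14 and 16 in shNF2, the log2 fold change of -1.54 ± 0.53 (SE) had an adjusted p of 0.314. It did not pass under any of the other settings that tested it.

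The other beta partners of alpha V did not share this pattern. Itgb6, whose product activates latent TGF-beta with alpha V, had 19.5, 41.8 and 31.1 scaled counts in shSC, library 20 and library 21, above shSC in both (log2 fold change 0.86, adjusted p = 0.671). Itgb5 had 443, 535 and 406, and Itgb8 had 30.2, 22.0 and 50.5, each with the shNF2 libraries on either side of shSC. Per kilobase in shSC, Itgb5 stood at 101, Itgb3 at 11.5, Itgb6 at 4.17 and Itgb8 at 3.45. Itga5, the alpha subunit of the main fibronectin receptor, had 561, 458 and 464, below shSC in both, with a log2 fold change of -0.28.

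Collagen-binding alpha subunits differed widely in level, at 152 scaled counts per kilobase in shSC for Itga2, 4.99 for Itga10 and 0.724 for Itga1. Itga2 had 1196 scaled counts in shSC, against 1013 in library 20 and 1114 in library 21. Itga1 had 7.79, 16.7 and 35.0, so that shSC was the lowest library, with a ratio of 2.15 (0.868 to 5.80) in library 20 and 4.49 (2.05 to 11.2) in library 21. Its log2 fold change of 1.52 ± 0.62 (SE) did not pass (adjusted p = 0.444). Itga10 had 26.3, 17.8 and 10.7, with shSC the highest, and a log2 fold change of -0.88. Among subunits best known from leukocytes, Itgb2 had 832, 970 and 987, and Itgb7 had 2302, 2689 and 2151. Itgae, the alpha partner of the beta 7 subunit, had 8, 35 and 7 reads, a ratio of 4.70 (2.14 to 11.7) in library 20 and 0.874 (0.270 to 2.76) in library 21.

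**Figure D2:**
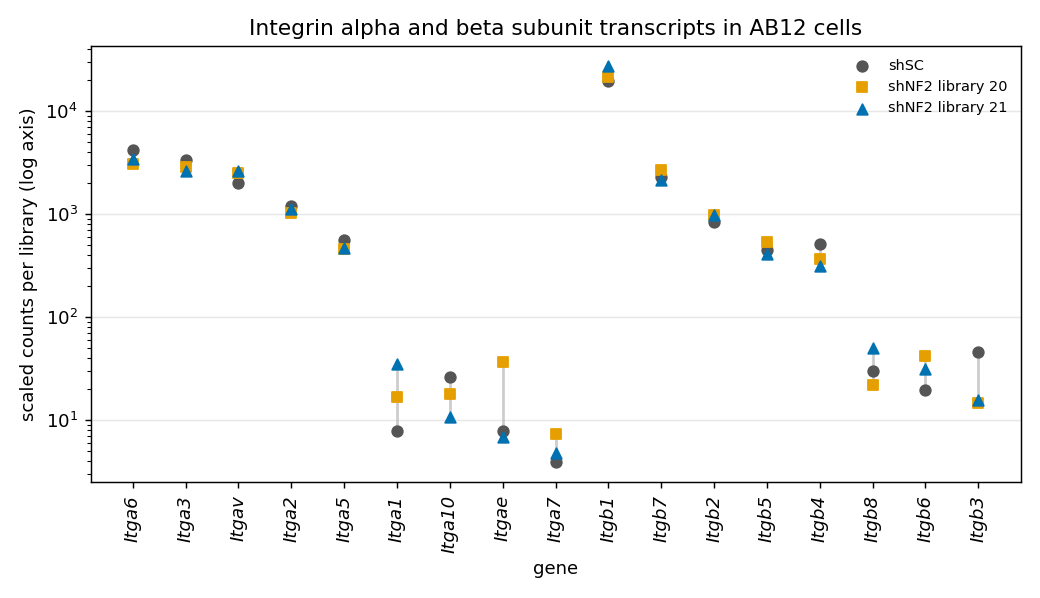
Scaled counts (log axis) of the 17 integrin genes in shSC (circles), library 20 (squares) and library 21 (triangles), alpha subunits on the left and beta subunits on the right. Itgb1 lies above all others at 19543 to 27363, and Itgb3 lies at 45.8 in shSC and at 14.6 and 15.6 in shNF2; heights of different genes also depend on transcript length.

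Among the ligands, Col8a1 rose in both shNF2 libraries. It encodes a short-chain, network-forming collagen found in vessel walls and in the basement membrane of the corneal endothelium. Col8a1 had 3119 scaled counts in shSC, against 6044 in library 20 and 6952 in library 21. Both shNF2 libraries were well above shSC, with ratios of 1.94 (1.86 to 2.02) and 2.23 (2.14 to 2.32). Library 21 was 1.15-fold (1.11 to 1.19) above library 20. The log2 fold change was 1.06 ± 0.21 (SE, adjusted p = 0.0362). The call was lost with TMM scaling (adjusted p = 0.0562), edgeR (0.0776), quantile normalization (0.523) and no variance trend (0.349). Quantile normalization and no variance trend called 0 of all tested genes. Col8a1 was also the most abundant collagen of the set per kilobase, at 547 in shSC, against 1059 in library 20 and 1219 in library 21. It accounted for most of the summed collagen counts, which were 5725, 9773 and 9556 in shSC, library 20 and library 21.

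The next collagens by level moved less evenly. Col18a1, a basement membrane collagen whose C-terminal fragment is endostatin, had 1480 scaled counts in shSC, against 2990 in library 20 and 1754 in library 21. The ratio to shSC was 2.02 (1.90 to 2.15) in library 20 and 1.18 (1.11 to 1.27) in library 21, and the log2 fold change of 0.63 ± 0.28 (SE) did not pass (adjusted p = 0.511). Col7a1, which forms the anchoring fibrils that tie epithelial basement membranes to the tissue below, had 573, 351 and 280. Both shNF2 libraries were below shSC, at ratios of 0.614 (0.535 to 0.703) and 0.489 (0.423 to 0.564), with a log2 fold change of -0.87 ± 0.27 (SE, adjusted p = 0.252).

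Collagens at low level went both ways. Col12a1, a collagen on the surface of fibrils, had 7.79 scaled counts in shSC, against 19.9 in library 20 and 44.7 in library 21, with shSC lowest (log2 fold change 1.81 ± 0.61, SE, adjusted p = 0.303). Col20a1 had 30.2, 9.41 and 10.7, with shSC highest (log2 fold change -1.50, adjusted p = 0.432). Col6a1, a chain of the beaded filament collagen VI, had 17 reads in shSC and 3 and 2 in shNF2, at ratios of 0.190 (0.0356 to 0.655) and 0.117 (0.0132 to 0.495), and was below the filter. Col4a3 and Col4a4, chains of 1 basement membrane collagen IV trimer, moved alike between libraries. Col4a3 had 109, 68.0 and 156 scaled counts and Col4a4 95.4, 56.5 and 103, lowest in library 20 and highest in library 21. Col5a1 had 227, 149 and 199 and Col11a2 26.3, 16.7 and 14.6, both below shSC in both libraries. The other 5 collagens (Col3a1, Col9a3, Col15a1, Col16a1 and Col17a1) had at most 24.1 scaled counts in any library.

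Laminin chains that can join in 1 trimer went in different directions. In shSC the chains of the alpha 5 laminins stood at 235 scaled counts per kilobase for Lama5, 184 for Lamb1, 93.5 for Lamb2 and 132 for Lamc1. Lama5 had 2685 scaled counts in shSC, against 2277 in library 20 and 1631 in library 21, below shSC in both (log2 fold change -0.48 ± 0.24, SE, adjusted p = 0.586). Lamb1 had 1060, 1484 and 1267, above shSC in both (log2 fold change 0.37). Lamb2, the alternative beta chain, had 531, 385 and 301, below it in both (log2 fold change -0.64, adjusted p = 0.483). Lamc1 had 1039, 1397 and 1036, above shSC in library 20 and level with it in library 21.

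Lamb3, a beta chain of epithelial basement membranes, had 173 scaled counts in shSC, against 134 in library 20 and 73.9 in library 21, with shSC highest (log2 fold change -0.79 ± 0.40, SE, adjusted p = 0.584). Lama3, an epithelial alpha chain, had 117, 97.3 and 124, on either side of shSC. Lamc3, a gamma chain, had 3 reads in shSC and 17 and 12 in shNF2, at ratios of 6.09 (1.76 to 32.4) and 3.99 (1.08 to 22.1). Of the 8 laminin chains, 7 were lower in library 21 than in library 20, where 49.2% of all tested genes were. Library 21 also differed from shSC with base composition: Spearman's rho between the GC content of the stand-in transcripts and the log2 fold change, over 10319 genes that share the same libraries, was -0.38 in library 21 and -0.03 in library 20. With transcript length rho was 0.32 and 0.03. These trends span the genes measured and are not limited to laminins. Their part in the single-library values of the laminins, or of other members such as Itgb1 and Col18a1, was not tested. After removal of the trends, the log2 fold changes of shNF2 against shSC were -0.34 for Lama5, -0.58 for Lamb2 and -0.74 for Lamb3, and none passed.

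Thbs1, which encodes the matricellular protein thrombospondin 1, an activator of latent TGF-beta and a ligand of CD47 and CD36, was high in library 21 alone. It had 99.3 scaled counts in shSC, against 173 in library 20 and 1196 in library 21. Both shNF2 libraries were above shSC, but the ratio was 1.74 (1.35 to 2.25) in library 20 and 12.04 (9.83 to 14.9) in library 21, and library 21 was 6.93-fold (5.88 to 8.20) above library 20. The log2 fold change of 2.18 ± 0.73 (SE) did not pass (adjusted p = 0.290) and passed only without the filter on low values (0.0175). Without library 21 the log2 fold change was 0.79, and without library 20 it was 3.58. Thbs3, the other thrombospondin gene of the set, had 497, 358 and 330, below shSC in both (log2 fold change -0.53 ± 0.26, SE, adjusted p = 0.584).

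A difference of at least 2-fold between libraries 21 and 20 was found in 8 of the 44 tested genes, where 3.83% of all tested genes showed one. Thbs1, Col12a1, Itga1, Vcan, Col4a3 and Itgb8 were higher in library 21, and Itgae and Col15a1 were higher in library 20. Apart from Thbs1 and Col4a3, each had at most 52 reads in any library. Col12a1, Itga1, Vcan and Itgae were under 10 scaled counts in shSC and were tested because of their shNF2 values. Only 230 of all 12813 tested genes were under 10 in shSC, so 8 of 44 and 3.83% are not a like comparison. Of 12 fibroblast markers, 3 had rows here, with summed scaled counts of 14.6 in shSC, against 22.0 in library 20 and 90.4 in library 21. The increase in library 21 was that of Acta2, smooth muscle actin, which had 1, 1 and 71 reads. The fibroblast gene Pdgfra had 9.74, 11.5 and 14.6 scaled counts and Col3a1 had 4, 9 and 7 reads. The part of such cells in the values of Thbs1, Col12a1 and Itga1 was not tested.

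Fn1, which encodes fibronectin, was lower in both shNF2 libraries and lowest in library 20. It had 2001 scaled counts in shSC, against 711 in library 20 and 1341 in library 21, at ratios of 0.356 (0.325 to 0.388) and 0.670 (0.626 to 0.718). The log2 fold change was -1.03 ± 0.31 (SE, adjusted p = 0.213), which passed only without the filter on low values (0.0389). Library 20 lay farther from shSC for Fn1, and library 21 for Thbs1. Tnc, which encodes tenascin C, had 64.3, 34.5 and 29.2, below shSC in both (log2 fold change -0.996 ± 0.45, SE, adjusted p = 0.525).

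Sparc, which encodes a collagen-binding matricellular protein, was nearly silent in shSC and low in shNF2. It had 1 read in shSC, against 20 in library 20 and 22 in library 21. The ratio to shSC was 21.5 (3.44 to 891) in library 20 and 22.0 (3.55 to 906) in library 21. The log2 fold change of 3.49 ± 0.68 (SE) had an adjusted p of 0.0317 in limma. Sparc passed the filter only through its shNF2 values, so this p-value is not independent of the filter. With 1 read in shSC, the call was lost with a pseudocount of 10 (adjusted p = 0.111, log2 fold change 1.51), edgeR (0.0851) and DESeq2 (0.663). It was also lost with length and GC correction (0.0831), quantile normalization (0.523) and no variance trend (0.0771). Quantile normalization and no variance trend called 0 of all tested genes. Fbn1, which encodes fibrillin 1 of elastic microfibrils, had 1, 10 and 5 reads, at ratios of 10.7 (1.53 to 466) and 4.99 (0.559 to 236), and was below the filter.

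The remaining ligands showed no call. Fbln2, which encodes fibulin 2 and was the second most abundant ligand per kilobase in shSC at 519, had 2242 scaled counts in shSC, against 2637 in library 20 and 2814 in library 21, above shSC in both (log2 fold change 0.28 ± 0.21, SE, adjusted p = 0.740). Of the basement membrane proteoglycans, Agrn (agrin) had 599, 459 and 492, below shSC in both, and Hspg2 (perlecan) had 443, 566 and 406, on either side of it. Vcan, which encodes the hyaluronan-binding proteoglycan versican, had 8, 6 and 19 reads.

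**Figure D3:**
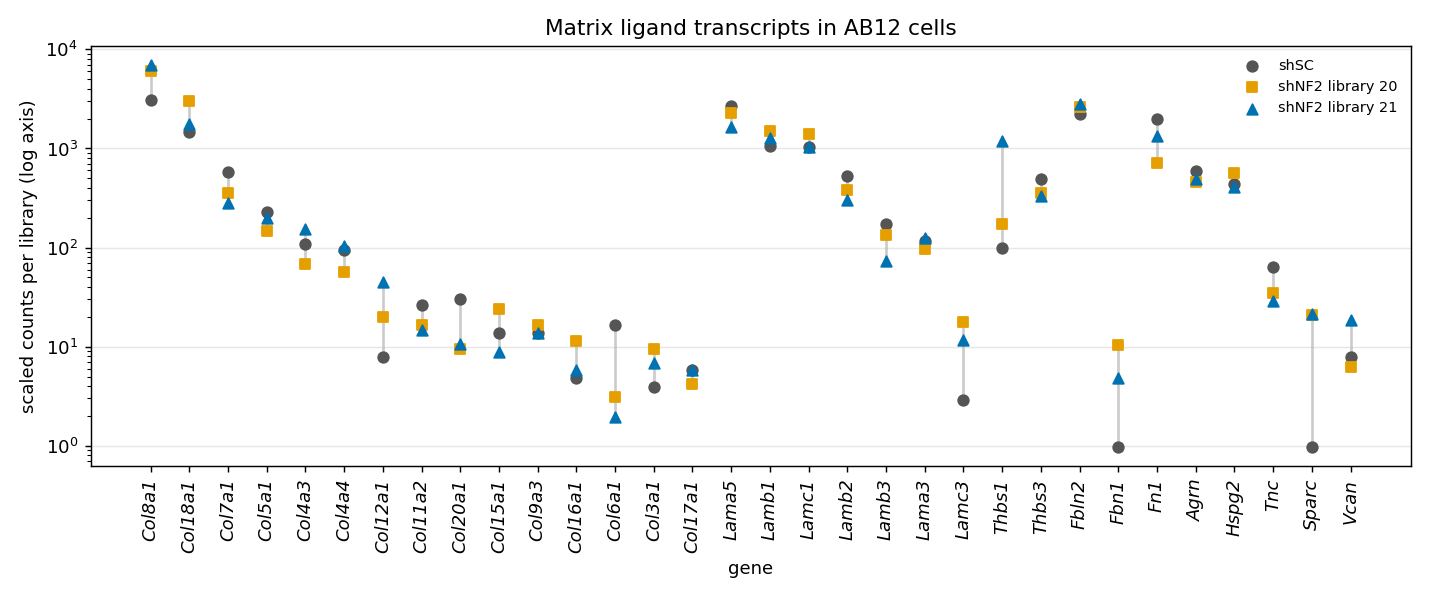
Scaled counts (log axis) of 32 matrix ligand genes in shSC (circles), library 20 (squares) and library 21 (triangles), by class and then by mean level. Col8a1 is higher in both shNF2 libraries at 6044 and 6952 against 3119, Thbs1 is high in library 21 alone at 1196, and Fn1 is lowest in library 20 at 711.

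Set side by side, receptors and their ligands went partly in the same and partly in different directions. Of the subunit genes of integrins that mainly bind laminin, Itga3, Itga6 and Itgb4 were below shSC in both libraries, and Itgb1 and Itga7 above it in both. Of the laminin chains, Lama5, Lamb2 and Lamb3 were below shSC in both, and Lamb1 and Lamc3 above it in both. Fn1 was below shSC in both libraries, as were Itga5 and Itgb3, while Itgb1 and Itgav were above it. Beside Col8a1, which rose, the collagen receptor genes Itga2 and Itga10 were below shSC in both libraries and Itga1 above it. Thbs1 was highest in library 21, and its receptor genes Cd47 and Cd36 stood on opposite sides of shSC there. Cd47 had 14940 scaled counts in shSC, against 12316 in library 20 and 10391 in library 21, and Cd36 had 7.79, 13.6 and 16.5. Cd36 rested on 8, 13 and 17 reads. Its ratio to shSC in library 21 was 2.12 (0.868 to 5.68), an interval that includes 1. The summed scaled counts of the receptors were 35052 in shSC, against 35876 in library 20 and 41636 in library 21, set mainly by Itgb1. Those of the ligands were 18082, 21417 and 21141.

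**Figure D4:**
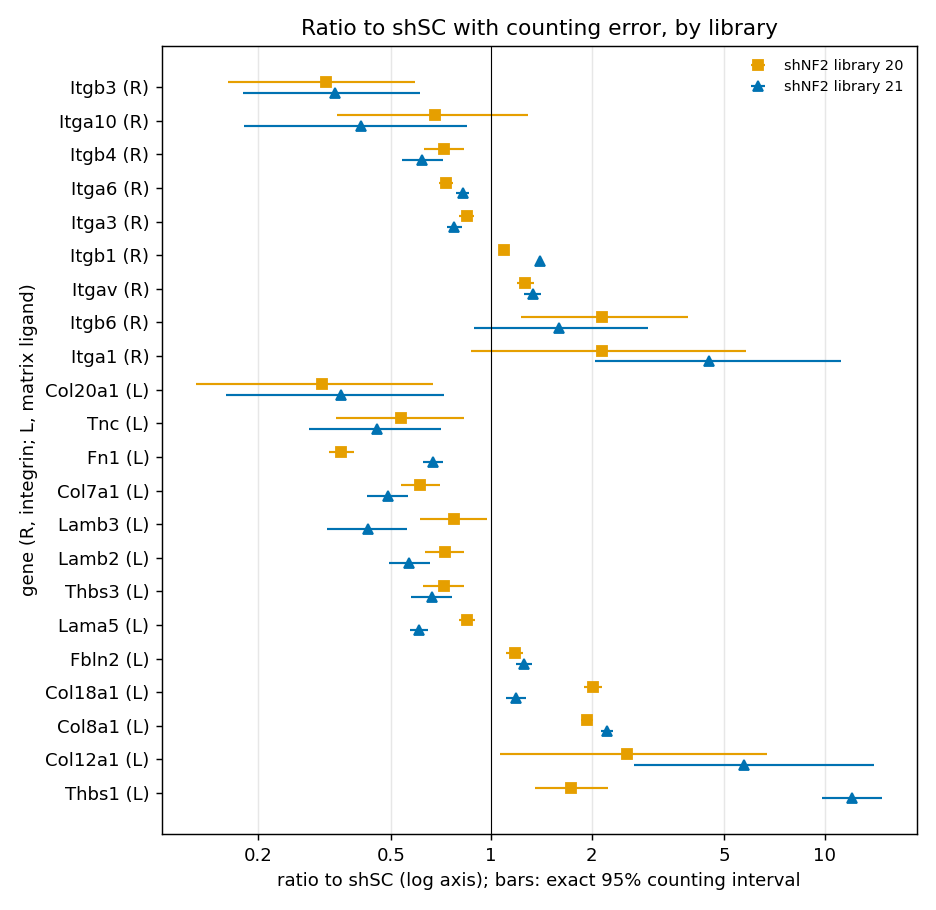
Ratio to shSC (log axis) in library 20 (squares) and library 21 (triangles) for 22 named genes with more than 3 reads in every library; bars are exact 95% counting intervals, which cover counting error only. Itgb3, Col7a1 and Fn1 lie below 1 and Col8a1 above 1 in both libraries. The libraries lie farthest apart for Thbs1, at 1.74 and 12.04, and their intervals do not meet. They also do not meet for other genes, among them Fn1 (0.325 to 0.388 and 0.626 to 0.718), Col18a1 and Col8a1.

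Other genes of the adhesion and matrix pathway showed 1 call. Of 30 tested adhesion adaptors 1 rose and 0 fell, beside 0.843% of all tested genes called in either direction, with a median log2 fold change of 0.01. Without adjustment, 4 were higher and 4 lower, or 26.7%, beside 9.27% of all tested genes. The one that rose was Cav1, the main structural protein of caveolae, with 4415 scaled counts in shSC, against 9698 in library 20 and 8511 in library 21 (log2 fold change 1.04 ± 0.21, SE, adjusted p = 0.0388). Its call was lost with TMM scaling (0.0603), edgeR (0.0851), quantile normalization (0.523) and no variance trend (0.350). Quantile normalization and no variance trend called 0 of all tested genes. The kindlins, which bind the tails of beta subunits and activate integrins, stood on opposite sides of shSC. Fermt2 (kindlin 2) had 1002, 1662 and 2101 scaled counts (log2 fold change 0.90 ± 0.23, SE, adjusted p = 0.122), and Fermt1 (kindlin 1) had 736, 409 and 467 (-0.75 ± 0.25, adjusted p = 0.295). Fermt2 passed without the filter on low values (0.0363).

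Of 19 tested matrix processing enzymes 0 rose and 0 fell in limma, beside 0.843% of all tested genes called in either direction. At an unadjusted limma p under 0.05, 1 was higher and 1 lower, or 10.5%, near the 9.27% of all tested genes. The median was 0.21. The lysyl oxidase gene Loxl4 had a log2 fold change of 0.61, the lysyl hydroxylase gene Plod1 0.42 and the procollagen C-proteinase enhancer gene Pcolce2 -0.53. Of 14 other matrix genes 0 rose and 0 fell in limma, with a median of -0.26. At an unadjusted limma p under 0.05, 0 were higher and 4 lower, or 28.6%, beside 9.27% of all tested genes. Spp1, which encodes osteopontin, a ligand of alpha V integrins, had 290014 scaled counts in shSC, against 158074 in library 20 and 173592 in library 21 (log2 fold change -0.81 ± 0.29, SE, adjusted p = 0.350). Both shNF2 libraries were below shSC. Ltbp4 and Ecm1 had log2 fold changes of -1.58 and -0.83. Of 12 other matrix receptors 0 rose and 0 fell in limma. At an unadjusted limma p under 0.05, 1 was higher and 2 lower, or 25%, beside 9.27% of all tested genes. The median was 0.06, with the syndecan gene Sdc1 at -0.62, the glypican gene Gpc1 at -0.62 and the collagen receptor kinase gene Ddr2 at 0.52.

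Of 12 mesothelial markers, only 5 (Msln, Krt7, Krt8, Krt18 and Krt19) had rows here. Their summed scaled counts were 43900 in shSC, against 39947 in library 20 and 33759 in library 21, most of it Krt18 and Krt8. Wt1, Upk3b, Calb2, Pdpn, Lrrn4, Gpm6a and Muc16 had no row. The markers with rows did not move together. The keratin gene Krt7 rose, with 49.7 scaled counts in shSC, against 289.8 in library 20 and 183 in library 21 (log2 fold change 2.19, limma adjusted p = 0.0119), and passed in edgeR and DESeq2 as well. Msln, which encodes mesothelin, had 7397, 9722 and 8977, above shSC in both libraries. The keratin gene Krt19 had 5113, 3016 and 2618, below it in both (log2 fold change -0.86, adjusted p = 0.0996), and the keratin genes Krt8 and Krt18 were also below it in both. Of 11 macrophage markers 4 had rows, with sums of 9307, 8559 and 8070, most of it Mrc1 and Cd14. These too went both ways, none past the test. The lysozyme gene Lyz2 had 56.5, 260.5 and 108 scaled counts (log2 fold change 1.55, adjusted p = 0.191, or 0.0349 with all genes kept), and Cd14 had 3222, 2576 and 1659 (-0.64, adjusted p = 0.440). Of 7 endothelial and 7 lymphocyte markers 0 had rows. The part of other cells in the values of the integrin and matrix genes was not tested.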

How the data were processed

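Poly(A) RNA of 3 AB12 libraries (1 shSC, 2 shNF2) was sequenced as pairs with a stranded kit, per the labels' protocols. The authors deposited 1 table of signal per gene, named as scaled counts. DESeq 1.22.1, HTSeq 0.5.3, STAR 2.5.0a, cutadapt 1.6 and the build mm10 are listed, without roles, in the submitters' processing notes. The strand setting and the filter on low genes are not given in the sources used here. With a tolerance of 0.001 reads, 100% of values were whole reads divided by 1 factor per library (1.03, 0.956 and 1.03). A further 4 rows that name no gene held 48.6%, 48.7% and 47.7% of reads and were left out.

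limma 3.58.1 (R 4.3.3) with a variance trend was fitted to log2(scaled count + 1) over the 12813 genes whose mean reached 10, and p-values were adjusted by Benjamini-Hochberg (threshold 0.05). The spread rests on 1 residual degree of freedom, that of libraries 20 and 21, with 11.9 prior degrees of freedom. The single shSC library is taken to vary as they do. An exact permutation test of these libraries cannot go below 0.333. Ratios of reads carry exact (Clopper-Pearson) 95% counting intervals, which cover counting error only. Alternatives were TMM and quantile scaling, other pseudocounts and filters, other moderation, edgeR 4.0.16 and DESeq2 1.42.0 on the recovered reads, each shNF2 library left out, and, added after the data had been seen, removal of length and GC trends (mgcv 1.9.3). For that step and for levels per kilobase the longest protein-coding human GENCODE transcript of the same symbol, or of a RefSeq synonym, stood in; it covered 80.5% of tested genes and all 50 genes of the set.

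The set, the lists and the tests were chosen with earlier results of these data known. Named genes were Nf2, Thbs1, Col8a1 and Itgb3, genes passing the test, the 8 receptors and 14 ligands with the smallest p, and the most abundant of each class; other members are given so that each is accounted for. In other lists they were genes passing and up to 3 with the smallest p; Cd47 and the cell type markers named were chosen after their values were seen. On simulated counts for 12685 genes the limma fit recovered 47 of 100 genes changed 2-fold and 99 of 100 changed 4-fold, with 3 false calls. The changed genes were drawn only from those with a mean of at least 100 reads. Recovery at lower reads, such as those of Sparc and Itgb3, was not tested. No mouse sequence was used here, so the planned search of proteins and promoters was not run. The values of 1 ligand gene are not reported here; it stays in the counts and medians.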

Additional observations from a re-analysis of the deposited data

How the results depend on the processing

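The count of 2 genes called higher became 1 with TMM scaling, a pseudocount of 10, a mean of at least 50, DESeq2 and length and GC correction. It became 0 with edgeR, and also with quantile normalization and no variance trend, which called 0 of all tested genes. The count of 0 called lower became 1 without the filter on low values (Fn1). Over tested genes, the receptor median of 0.07 turned to -0.0537 with a mean of at least 50, and the ligand median of -0.08 moved to -0.28. Without library 20 the medians were -0.113 for the receptors and -0.0642 for the ligands, and without library 21 they were -0.0582 and -0.250, so the sign of the receptor median was not stable. The cause of these changes was not tested; a mean of at least 50 also leaves fewer genes. No named gene that passed the filter changed sign under a setting that tested it; Fbn1, below the filter, was fitted only without it. Low reads limit Sparc, Fbn1, Lamc3 and Col6a1 most. No paired analysis was possible because shSC and shNF2 share no replicate number, and leaving out shSC leaves no comparison.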
